A study of Saccharomyces cerevisiae with 8 samples.

Results

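The RNA described here came from Saccharomyces cerevisiae cells of the laboratory strain S288C that the labels give as aged 64 h, and it was read in the green (Cy3) channel of all 8 Agilent 2-colour arrays of the series. The red (Cy5) channel of each array carried total RNA of exponentially growing S288C cells, sampled from a batch culture in minimal medium at 16, 17, 19, 20, 21, 22, 23 and 24 h, with 1 array per time. The labels do not state the medium of the 64 h cells, nor whether 1 extract served every array. The arrays are treated here as repeat measurements of the 64 h RNA. If several extracts were used, the spread (SD over 8 arrays) holds their differences too, and the 2 cannot be told apart. Times are those recorded for the scanner files. The files recorded at 20 h and 24 h matched each other's columns in the authors' deposited table (correlation across 5609 genes 0.895 and 0.762, against -0.524 and -0.520 with their own), while the other 6 matched their own best, so the time of these 2 arrays is in doubt. Dyes were never swapped. Every gene on the array is a member: 6225 genes, measured in 12512 gene spots per array. Of these, 5555 genes (89.2%) were detected on all 8 arrays, 235 on 1 to 7 arrays and 435 on none. Detected means that the scanner software marked at least 1 spot of the gene as well above background.

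As background, budding yeast given glucose ferments it to ethanol first. When the glucose is gone it passes the diauxic shift and lives on ethanol and acids by respiration, making sugar phosphates by gluconeogenesis and the glyoxylate cycle. When those are spent too, it stops dividing, enters stationary phase and carries stores of trehalose and glycogen, many heat shock proteins and a thickened cell wall.

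A level is the mean over arrays of the log2 Cy3 signal above local background, with the arrays brought to a common median, so a step of 1 is a factor of 2 (1 log2 unit) in signal. An order of levels is an order of probe signals: it is not per length, and probes differ in how well they bind. In 29 genes with more than 1 probe, the probes differed by more than 1 log2 unit in 18 cases and by up to 4.86, with the probes of JIP4 at 7.58 and 12.44. The brightest probe stands for the gene. In RNA of a whole culture, fewer cells expressing a gene and less RNA per cell cannot be told apart.

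Signal and detection were similar on all arrays, while the 2 slides differed in their negative control spots. The median Cy3 signal was 1338 to 1974, and 89.46% to 91.12% of gene spots were well above background. The 2 spots of a probe correlated at 0.984 to 0.997 across genes, and levels of different arrays at 0.991 to 0.999. Arrays of the same slide correlated at 0.9965 or more, and arrays of different slides at 0.9935 or less. The SD of a gene over the arrays had a median of 0.109 among genes detected on all 8, and 0.234 at the 95th percentile. Arrays lay on 2 slides, each scanned in its own session. The arrays labelled 17, 20 and 21 h made up slide 2. Its negative control spots read 46 to 55, against 80 to 104 on slide 1.

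The 64 h cells had the markers of stationary phase. All 9 markers on the array were detected on all 8 arrays, as were 89.2% of all genes, so their levels are given. HSP26, a small heat shock protein, was saturated on all 8. HSP12, a small membrane-protecting stress protein, had a level of 15.67 at its lowest, 15.81 at the median and 15.98 at its highest array, with a saturated spot on 3 arrays. YGP1, a secreted glycoprotein made on starvation, read 15.01, 15.21 and 15.31, and GRE1, a desiccation-stress protein, 14.74, 14.84 and 14.95. SNZ1, of vitamin B6 synthesis, stood at 14.64 ± 0.08 (SD, n = 8), while its divergently transcribed partner SNO1 stood at 10.44 ± 0.09. SPG4, named for survival in stationary phase, was at 13.23 ± 0.07, the Hsp70 gene SSA3 at 12.54 ± 0.08 and the desiccation-stress gene SIP18 at 10.80 ± 0.09. These levels sit in the upper part of the range for most of the list, with SNO1 and SIP18 below the median of detected genes, 10.92.

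Genes of dividing cells were present as well. The G1 cyclin gene CLN1 read 12.69, 12.78 and 12.91 at its lowest, median and highest array, and the ribonucleotide reductase gene RNR1 13.68, 13.78 and 13.92. CLN2, the other G1 cyclin of that pair, was far dimmer at 8.54 ± 0.29, with its 3 slide 2 arrays (8.12 to 8.28) below all of slide 1 (8.65 to 8.81). CLB2, CLB5 and CLB6, B-type cyclins, stood at 10.30, 10.16 and 8.24, and the histone genes HTA1 and HTB1 at 14.80 and 14.70. All 8 markers of dividing cells were thus detected on all arrays, as were 89.2% of all genes, so detection alone does not set them apart.

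**Figure D1:**
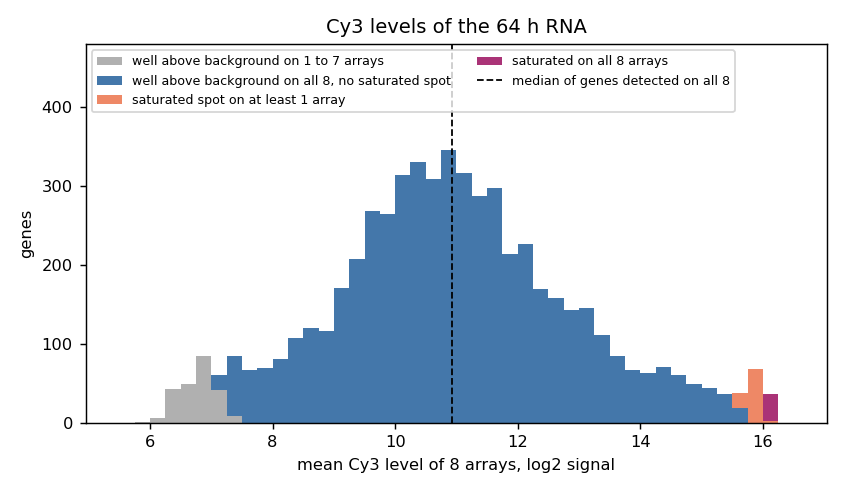
Histogram of the mean Cy3 level (log2 signal, horizontal axis) of the genes detected on at least 1 of 8 arrays, coloured by detection and saturation; the vertical axis counts genes in steps of 0.25 and the dashed line marks the median of genes detected on all 8 arrays, 10.92. The 435 genes detected on no array are not drawn, and the 34 genes saturated on every array stand at the right edge.

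Levels of genes detected on all 8 arrays spanned a 29.8-fold range in signal between the 10th percentile (8.80) and the 90th (13.69). The 100 brightest genes made up 19.9% of the summed signal and the 500 brightest 55.8%, which are lower limits because saturated spots are held at the ceiling of 65515 signal units.

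On all 8 arrays 34 genes (0.546%) were saturated in both spots, from mitochondrial energy metabolism, acetate and C2 metabolism, stress and metal defence, the cell wall and plasma membrane, glycolysis, translation elongation and leucine synthesis. The grouping was made after the genes were seen and was not tested. They have no order among themselves, and all read 16.00 ± 0.19, a spread that comes only from the scaling of the ceiling. Mitochondrial energy metabolism gave the tricarboxylic acid cycle enzymes CIT1, ACO1, FUM1, SDH1 and SDH2, the ATP synthase subunits ATP1, ATP2 and OLI1, the ADP/ATP carrier PET9, the phosphate carrier MIR1 and the outer membrane channel POR1. Acetate and C2 metabolism gave PCK1, the PEP carboxykinase of gluconeogenesis, ICL1, the isocitrate lyase of the glyoxylate cycle, YAT1, a carnitine acetyltransferase, and ACH1, a CoA transferase of acetate. Glycolysis gave PGK1, ENO1 and TDH1. Stress and metal defence gave HSP26, HSP30, its relative MRH1, TMA10, HOR7, the superoxide dismutase SOD1 and the metallothionein copies CUP1-1 and CUP1-2. Cell wall and plasma membrane gave SED1, CWP2, ECM33, NCW1 and the proton pump PMA1. TEF1 and TEF2, both encoding elongation factor 1-alpha, and LEU4, of leucine synthesis, complete the set. The copies of CUP1, and likewise TEF1 and TEF2, are near-identical, so their probes cannot be taken as separate.

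Saturation in 64 h RNA did not have the same counterpart in growing cells for each of these genes. In Cy5, 10 of the 34 were saturated in both spots on all 8 arrays too, among them PMA1, PGK1, TEF1 and SOD1. In 11, no Cy5 spot was saturated on any array: ACH1, FUM1, HSP26, HSP30, ICL1, MRH1, PCK1, SDH1, SDH2, TMA10 and YAT1. The other 13 had a saturated Cy5 spot on at least 1 array but not both spots saturated on all 8. A further 65 genes were saturated in both Cy3 spots on 1 to 7 arrays, and 123 genes had a saturated Cy3 spot on some array. HXT5, a hexose transporter of slow-growing cells, was saturated on 5 arrays, the mitochondrial superoxide dismutase SOD2 on 5, the peroxisomal citrate synthase CIT2 on 6 and the fructose bisphosphatase FBP1 on 3. ADH2, the alcohol dehydrogenase that oxidises ethanol, was saturated on 1.

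Among genes saturated on no array in both spots, the 20 brightest lay close together, between 15.67 and 15.83. Of these, 17 had a saturated spot on at least 1 array, so their levels are partly held at the ceiling. Ribosomal protein genes among these included RPS26A, RPL16B, RPL5, RPS3, RPS2, RPS23B and RPS15. Next to these stood HSP12, the cell wall gene SPI1 (15.77 ± 0.07), the vacuolar proteases PRC1 and PEP4 (15.83 and 15.68), the pyruvate dehydrogenase subunit PDA1, the translation factor TIF2 and the histone H3 gene HHT1. Respiration gave RIP1 and COR1 of complex III, the ATP synthase subunit ATP7 and KGD2 of the 2-oxoglutarate dehydrogenase. MLS1, which encodes malate synthase in the glyoxylate cycle, read 15.59 at its lowest, 15.74 at the median and 15.84 at its highest array, with no spot saturated. The difference between the first and last of the 20, 15.83 and 15.67, is of the size of their SDs over arrays (0.06 to 0.26), so no order within them is read.

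Reference genes of other pathways were also bright. ACT1, actin, was saturated in both spots on 5 arrays, and MET17, of sulfur assimilation, on 7. INO1, the inositol phosphate synthase, read 14.58, 14.63 and 14.72 at its lowest, median and highest array. The catalase gene CTT1 stood at 13.92 ± 0.07, the general amino acid permease gene GAP1 at 14.61 ± 0.15 and the large-subunit ribosomal protein gene RPL3 at 14.61 ± 0.09.

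**Figure D2:**
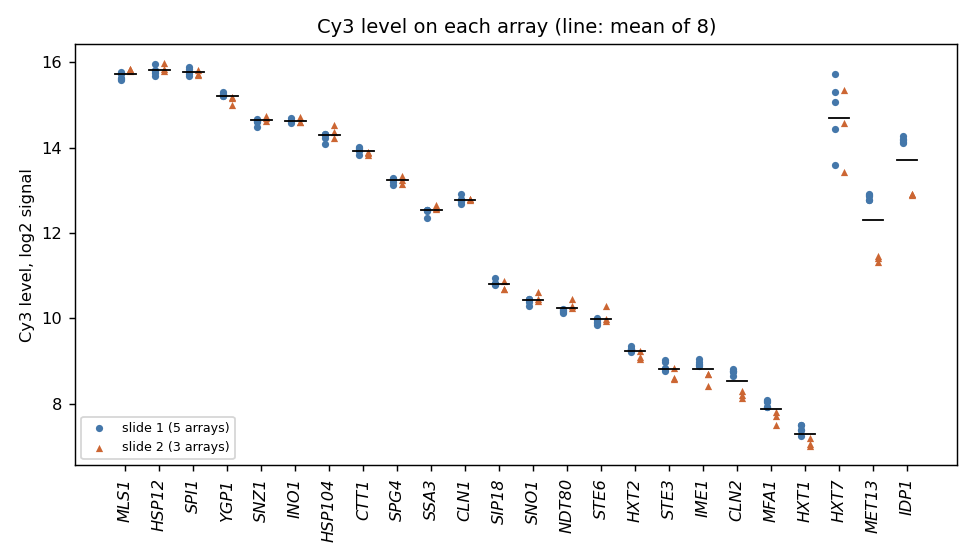
Cy3 level (log2 signal, vertical axis) of 24 named genes on each of 8 arrays, as circles for slide 1 and triangles for slide 2, with the mean of 8 as a line. Most genes repeat closely, HXT7 ranges from 13.44 to 15.73, and MET13 and IDP1 are lower on all slide 2 arrays.

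The median level of each gene list places the 64 h transcriptome on 1 scale. The median over all 6225 genes was 10.68, and 23 of 31 lists lay above it. By construction, 9.99% of all genes are in the brightest 10% (levels from 13.49 up), and a list is read against that share. Undetected members enter a median at their measured signal. The tricarboxylic acid cycle led with a median of 15.94 and 15 of its 17 genes in the brightest 10%. Its dimmest member was CIT3 (10.98 ± 0.13), a minor mitochondrial citrate synthase. Gluconeogenesis and the glyoxylate cycle had a median of 15.58 with 15 of 18 in the brightest 10%, from the acetate transporter ADY2 (11.47) and the dicarboxylate carrier DIC1 (12.81) up to the saturated PCK1 and ICL1. Glycolysis and fermentation had 15.56 with 19 of 24. The dimmest there were ADH4 (9.06 ± 0.12), an alcohol dehydrogenase paralogue, and PDC6 (9.97 ± 0.09), a minor pyruvate decarboxylase, while ADH1 and TDH3, the chief enzymes of growth on glucose, read 15.58 and 15.63.

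The respiratory chain and ATP synthase had a median of 14.64, with 29 of 39 genes in the brightest 10%. COX5B and CYC7, the hypoxic isoforms of a cytochrome c oxidase subunit and of cytochrome c, were its dimmest at 9.86 ± 0.06 and 9.90 ± 0.09. Heat shock and small chaperones had 14.18 with 18 of 30, from SSE2 (11.24) and HSP33 (11.30) up to the saturated HSP26 and HSP30. HSP104, the disaggregase, read 14.10, 14.30 and 14.54 at its lowest, median and highest array. HSP33 belongs to a family of near-identical copies, so its probe may read them too. Stationary phase and starvation genes had a median of 13.09 with 17 of 40 in the brightest 10%, down to SNO2 (7.89) and SNO3 (8.21), of the other vitamin B6 gene pairs.

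Translation genes were split by kind. Cytosolic ribosomal proteins had a median of 14.22, with 93 of 136 in the brightest 10%, from RPL7B (7.56 ± 0.15) and RPL18B (9.51 ± 0.22) to RPP0 and RPL4A, each saturated on 4 arrays. Ribosome biogenesis genes had a median just under that of all genes, and 0 of 118 in the brightest 10%. Their brightest were NSR1 (13.47 ± 0.21), a nucleolar protein of rRNA processing, and TIF6 (13.13 ± 0.17), a large-subunit assembly factor, and their dimmest the helicase FAL1 (8.51) and the assembly factor SDA1 (8.54). RNA polymerase subunits stood at 10.88 with 1 of 33, and mitochondrial ribosomal proteins at 10.85 with 1 of 66, MRPS12 at 14.27. Translation factors had 12.75 with 13 of 41, where ANB1, the hypoxic form of initiation factor 5A, was detected on 1 array only, at 6.63.

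Genes of the cell wall and of histones were bright, and those of stores and of the proteasome less so. Flocculins and cell wall genes had a median of 14.57 with 23 of 36 in the brightest 10%, and the flocculin gene FLO9 was the dimmest at 6.94. Ergosterol synthesis had 13.19 with 11 of 28, led by ERG25 (15.57 ± 0.10) and ERG3 (15.47 ± 0.10). Trehalose and glycogen genes had 12.20 with 4 of 21, led by the glycogen synthase GSY2 (14.61 ± 0.11) and the glycogen phosphorylase GPH1 (14.47 ± 0.10). The proteasome had 12.66 with 5 of 36, the polyubiquitin gene UBI4 (15.56 ± 0.08) being its brightest. Histones had 14.07 with 7 of 11, the lowest being the centromeric variant CSE4 (8.83).

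The other lists ranged from 13.49 down to 7.28. Amino acid biosynthesis stood at 13.49 with 42 of 83 in the brightest 10%, oxidative stress defence at 12.76 with 9 of 29 and glycerol metabolism at 12.64 with 3 of 14. In the last, STL1, the glycerol importer, led with 15.12 ± 0.10, followed by GPD1 (14.86), of glycerol synthesis, and the dihydroxyacetone kinase DAK2 was dimmest at 7.06. Amino acid and nitrogen permeases stood at 11.35 with 6 of 30. The ammonium permease MEP2 (15.67) and the proline permease PUT4 (14.91) led them, and GNP1 (7.38 ± 0.21), a glutamine permease, was among the dimmest. Iron and zinc uptake stood at 11.33 with 6 of 29, peroxisomal beta-oxidation at 11.31 with 3 of 33, autophagy and vacuolar proteases at 11.20 with 4 of 29, and seripauperin and subtelomeric families at 10.75 with 4 of 57. Lists below the median of all genes were thiamine at 10.48, the phosphate regulon at 10.34, the cell cycle at 10.32, maltose, sucrose and galactose use at 9.32, mating at 8.43, meiosis at 7.71 and hexose transporters at 7.28.

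**Figure D3:**
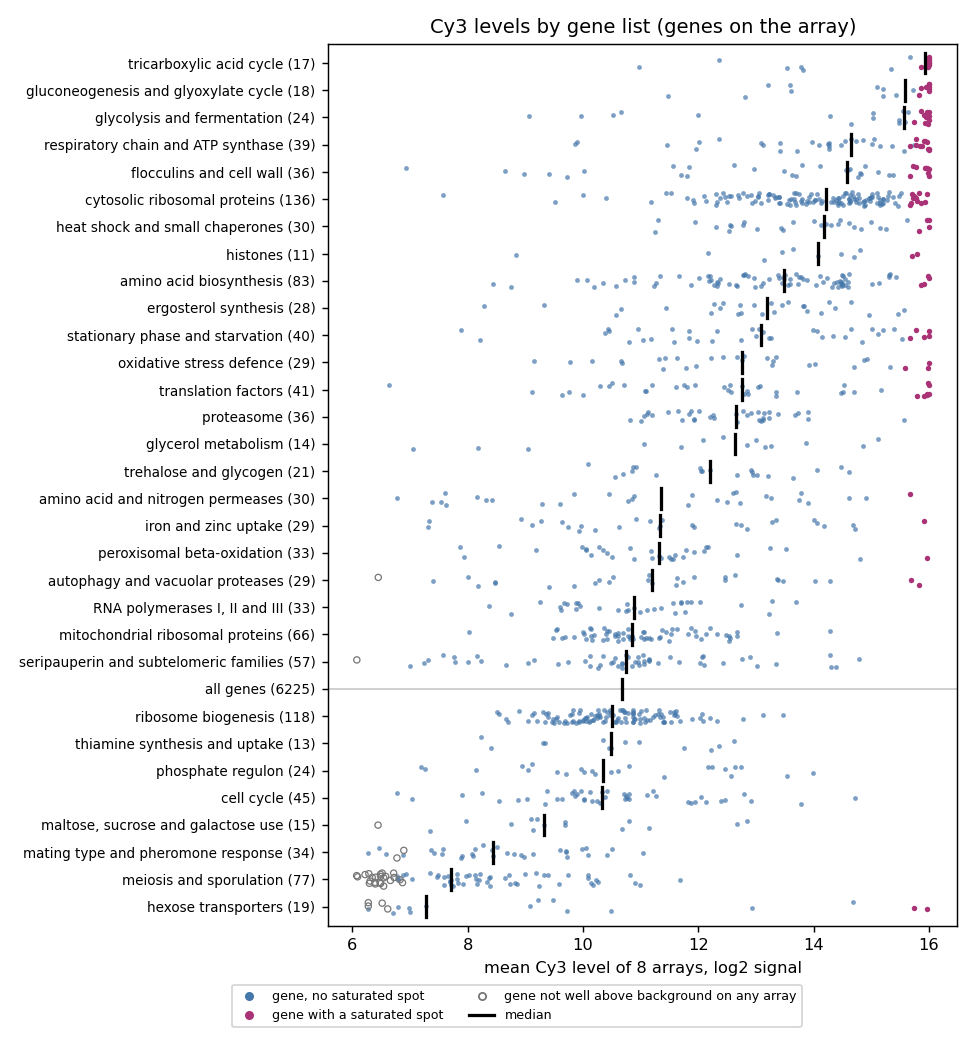
Mean Cy3 level (log2 signal, horizontal axis) of each gene in 31 lists, ordered by the list median (black bar), with the number of genes on the array in brackets. Coloured points mark genes with and without a saturated spot and open circles genes detected on no array; the tricarboxylic acid cycle stands at the top with 15.94 and hexose transporters at the bottom with 7.28, beside 10.68 for all genes.

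Hexose transporters held both ends of the scale. HXT5 was at 15.97 and HXT6, a high-affinity transporter, at 15.74, both with saturated spots. HXT7, near-identical to HXT6, was the most variable gene detected on all 8 arrays without Cy3 saturation, with an SD of 0.83. It read 15.73, 15.34, 15.30, 13.44, 14.59, 14.44, 13.59 and 15.07 on the arrays recorded at 16, 17, 19, 20, 21, 22, 23 and 24 h. The arrays recorded at 20 and 23 h were low for HXT6 as well, at 15.24 and 15.08, and these 2 arrays lay on different slides. In Cy5, HXT7 was saturated on every array and HXT6 on 6 of 8. What the high Cy5 signal contributes to these readings was not tested.

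Part of the family was close to background, while HXT2 and HXT4 stood higher. HXT1, a low-affinity transporter of cells in high glucose, stood at 7.28 ± 0.19, with a median of 7.31 and a highest array of 7.49. HXT2 read 9.05, 9.25 and 9.34 at its lowest, median and highest array. HXT4 stood at 9.49 ± 0.08. HXT10 and HXT16 were detected on 1 array each, and HXT11, HXT13, HXT14 and HXT15 on none. SNF3, a sensor of low glucose, was at 12.93 ± 0.07.

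The genes not detected in 64 h cells were mainly open reading frames without a current name. Of 6225 genes, 435 (6.99%) were undetected on all 8 arrays. The number rests on the detection rule: only 84 had no signal significantly above background by the software's other, less strict flag. They made up 52.2% of the 488 array names with no match in the R64 reference table (255 genes), 17.8% of the 517 matched genes without a symbol (92) and 1.69% of the 5220 genes with one (88). Most were undetected in growing cells also: 312 of the 435 were well above background in Cy5 on no array, 121 on 1 to 7 and 2 on all 8. Among the 88 with a symbol, 62 are also undetected in Cy5.

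Meiosis and sporulation genes were the largest group among the undetected list members, with 23 of 77 (29.9%) against 6.99% of all genes. By the less strict flag 6 of the 77 were undetected, against 84 of all 6225 genes. They include SPO74, SPO77, SPS2, OSW1 and SMA2, of spore formation, and NDJ1, of telomere clustering in meiosis, none of which was detected in Cy5 either. SPO11, which makes the double-strand breaks of meiotic recombination, was undetected in Cy3 and marked in Cy5 on 5 arrays. The list's median was 7.71 and its detected members were mostly dim, with SPR6 (11.67 ± 0.10) and the RNA-binding protein gene RIM4 (10.98 ± 0.45) the brightest. The meiotic regulator gene IME1 read 8.42, 8.90 and 9.05 at its lowest, median and highest array. NDT80, the transcription factor of the middle sporulation genes, stood at 10.23 ± 0.11, IME2 at 7.66 and the spore wall gene DIT1 at 8.86, while the kinase gene SMK1 was detected on 2 arrays only.

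Mating genes were dim in both cell types' sets. Of 34 genes, 2 were undetected (5.88%, against 6.99% of all genes), the a-factor gene MFA2 and the fusion gene FIG1. Among genes of MATa cells, MFA1 stood at 7.88 ± 0.20, the receptor gene STE2 at 8.07, the transporter gene STE6 at 9.98 ± 0.14, and BAR1, AGA2 and ASG7 at 7.36, 7.42 and 8.51. Among genes of MATalpha cells, MF(ALPHA)1 stood at 8.42 ± 0.21, STE3 at 8.80 and SAG1 at 9.70 ± 0.16, and MF(ALPHA)2 was detected on 1 array. The labels give no mating type, and neither set of markers stood clear of the other. The brightest of the list were the shared kinase gene STE20 (11.04) followed by the transcription factor gene STE12. Other undetected list members were the galactose epimerase gene GAL10, the anaerobic mannoprotein gene DAN1 and ATG16, of autophagy.

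Mitochondrially encoded genes, chosen for description after their values were seen, differed by probe. Of 23 probes on genes of the mitochondrial genome, 12 were detected on all 8 arrays and 10 on none. Over all genes the shares were 89.2% and 6.99%. OLI1 was saturated, and cytochrome b (COB) read 11.57, 12.16 and 12.29 at its lowest, median and highest array. ATP6 stood at 11.36, COX1 at 10.82, COX3 at 10.74, COX2 at 9.14 and ATP8 at 7.90. The intron-encoded AI2 and AI5_ALPHA were detected at 10.81 and 11.15, whereas AI1, AI3, AI4, AI5_BETA, BI2 and BI4 were not, nor was VAR1, the mitochondrial ribosomal protein. Per the labels, the RNA was copied from an oligo-dT primer in both channels.

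Set against growing cells on the same arrays, the 64 h RNA differed in most genes, so a share of genes called is read against a high background. The ratio below is log2 of Cy3 over Cy5, positive where 64 h cells were higher, which turns the direction of the authors' table. It sets 8 arrays against 1 RNA, leaves out the spread of 64 h cells and holds any dye bias. The Cy5 samples were taken at successive times and are not repeats of 1 state. The SE and p-value of a ratio thus mix change over time with array noise. Only the 5422 genes with no saturated spot in either channel are counted, which leaves out 276 tested genes. The test takes genes detected on at least 4 arrays in either channel, so a gene dim in 1 channel can enter through the other. For the lists named below in which it lets in such genes, counts over genes detected on at least 4 arrays in both channels, a rule added after seeing the data, are given beside the first. Loess centres the ratios of each array, so higher and lower are relative to the bulk of genes and are not amounts per cell. The near balance of the counts in the 2 directions depends on this scaling. With limma, 2279 of the 5422 counted genes (42.0%) were higher and 2175 (40.1%) lower in 64 h cells. The difference reached 2-fold in 533 of the higher and 237 of the lower genes.

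Genes of starvation and of C2 carbon use were higher in 64 h cells. All 35 counted genes of the stationary phase list passed in this direction, and 34 of 34 detected in both channels. The lists were written with earlier results of these data known, so list counts here and below are descriptions. The median of the 35 was 2.49 on the log2 scale, beside 0.01 over all counted genes. YGP1 had a ratio of 6.51 ± 0.17 (SE, n = 8; limma adjusted p = 1.6e-10) and SPG4 one of 4.88 ± 0.23. In gluconeogenesis and the glyoxylate cycle 7 of 8 were higher, with a median of 4.50. MLS1 had the ratio 7.28 ± 0.05 (limma adjusted p = 1.6e-14) and ADY2 3.88 ± 0.07, and the exception was DIC1 at -1.45 ± 0.07. In the tricarboxylic acid cycle 5 of 7 were higher, KGD2 at 2.48 ± 0.14. For the respiratory chain, 26 of 28 were higher with a median of 1.62, ATP7 at 1.91 ± 0.09. The exceptions were the hypoxic isoforms COX5B (-2.83 ± 0.10) and CYC7 (-0.81 ± 0.13).

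With median centring in place of loess, the median changed sign for 2 gene lists, hexose transporters (0.10) and amino acid and nitrogen permeases (-0.09). It changed sign for none of the lists with the scanner's own ratio. Protection and storage genes were higher too. Of 22 heat shock genes, 20 were higher with a median of 1.62, HSP104 at 2.38 ± 0.12 and SSA3 at 2.69 ± 0.06. The 1 lower member, SSA2, a constitutive Hsp70, had a ratio of -1.88 ± 0.11. With median centring 17 of the 22 were higher and 3 lower (median 1.16), beside 2244 higher and 2121 lower of all 5422. Trehalose and glycogen genes were higher in 16 of 20 (median 0.99), and in 14 of 20 with median centring (median 0.8). GSY2 stood at 0.96 ± 0.23 and GPH1 at 1.41 ± 0.34, each above 0 on 7 of 8 arrays. Within slide 2 alone, 5 of the 20 were called higher (median 0.77), beside 1841 of all 5422 counted genes on that slide. In the autophagy list 20 of 26 were higher (median 0.58). Iron and zinc uptake was higher in 24 of 28 (median 0.62), thiamine in 12 of 13 (0.66), and the seripauperin and subtelomeric families in 49 of 56 (0.85; 46 of 53 detected in both channels), AAD10 at 4.14 ± 0.06. Members of these families are alike in sequence, so their probes may share signal.

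Genes of ribosome production and translation were lower in 64 h cells. In ribosome biogenesis, 0 of 118 were higher and 111 lower, with a median of -0.71. Within slide 2 alone, which has 3 arrays, 40 of 118 were lower, with a median of -0.57. The slide 2 counts here stand beside 1622 lower of all 5422 counted genes on that slide. Among the 61 of 136 cytosolic ribosomal protein genes with no saturated spot, 59 were lower (median -1.06), RPL18B at -1.42 ± 0.10, and 1 was higher, RPL15B at 0.13 ± 0.04, which turned to -0.02 with median centring in place of loess. RNA polymerase subunits were lower in 29 of 33 (median -0.58), but in 16 of 33 within slide 2 alone. Translation factors were lower in 27 of 30 (-0.52), and in 26 of 29 detected in both channels. The 2 higher factors were HEF3 (1.87 ± 0.04), a paralogue of elongation factor 3, and CAM1 (0.36 ± 0.08), which turned to -0.30 with median centring. Mitochondrial ribosomal proteins were lower in 45 of 66 (median -0.22), and in 29 of 66 within slide 2 alone. Of 63 amino acid biosynthesis genes 40 were lower and 13 higher, the latter 7 with median centring. Cell cycle genes were lower in 25 of 44 and higher in 8 (24 and 8 of 43 detected in both channels), with CLN2 at -0.34 ± 0.05, CLN1 at 0.48 ± 0.05 and RNR1 at 0.00 ± 0.11, which did not pass.

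The 61 counted ribosomal protein genes, 59 of them lower than in growing cells, had a median Cy3 level of 13.06. For all 136 the median was 14.22. The difference comes from leaving out genes with a saturated spot in either channel. Only 11 of the 136 had a saturated Cy3 spot, so most genes left out were saturated only in Cy5, the channel of growing cells. Some dim lists were mostly higher in 64 h cells. Meiosis and sporulation genes, at a median level of 7.71, were higher in 35 of 50 and lower in 5 (median 0.60). Of the 42 detected in both channels, 29 were higher and 4 lower (median 0.53). IME1 stood at 1.13 ± 0.09, NDT80 at 0.89 ± 0.06 and DIT1 at 0.87 ± 0.05. Mating genes were higher in 18 of 29 and lower in 4, and of the 26 detected in both channels 16 were higher and 4 lower, with MFA1 at 0.73 ± 0.04. MF(ALPHA)1 was detected in Cy5 on 2 arrays only, so no ratio is given for it. In the hexose transporter list 2 of 8 (2 of 7 detected in both channels) were higher, SNF3 at 1.78 ± 0.11 and HXT9 at 1.37 ± 0.04, and 3 were lower, HXT1, HXT2 and HXT4 (-3.11 ± 0.10).

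**Figure D4:**
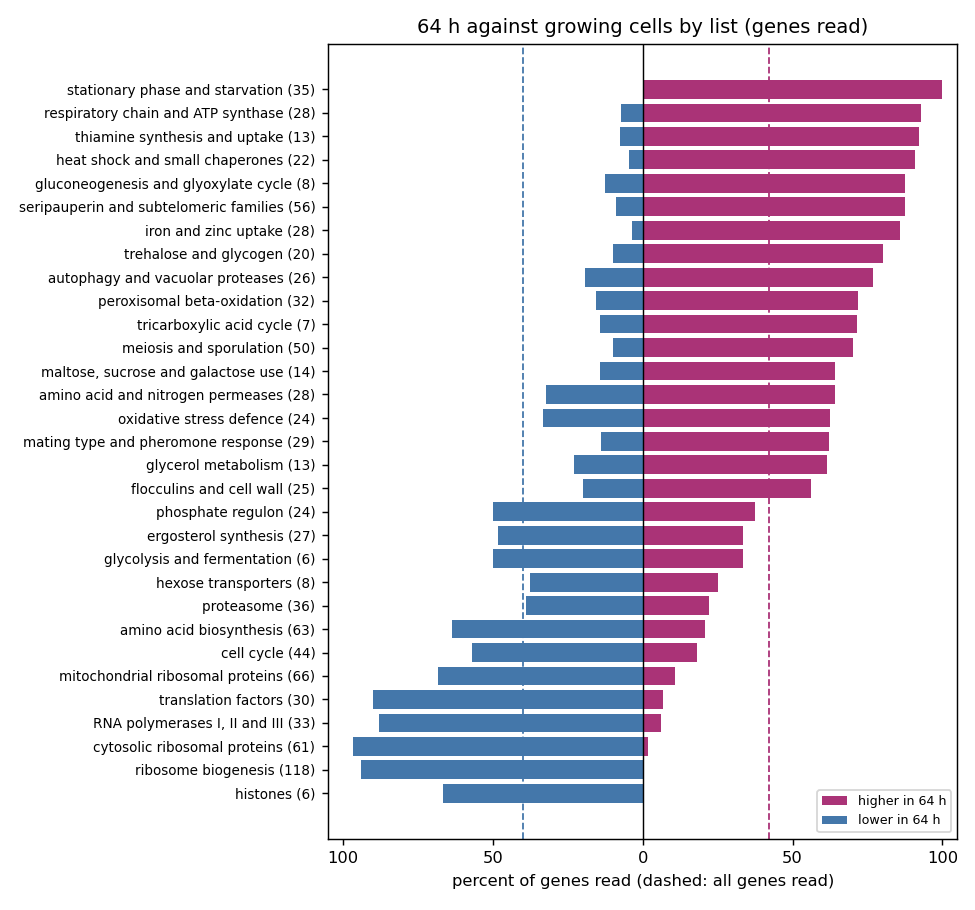
Percent of counted genes of each list called higher (right) or lower (left) in 64 h than in growing cells by limma, with the number counted in brackets; dashed lines mark the 42.0% and 40.1% of all 5422 counted genes. Stationary phase genes stand at the top with 35 of 35 higher (34 of 34 detected in both channels) and ribosome biogenesis genes near the bottom with 111 of 118 lower. The lists were written with earlier results of these data known.

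Detection in 1 channel only was mostly partial. Undetected in Cy3 on all arrays but detected in Cy5 on at least 1 were 123 genes, and 52 were the other way round. Detected in 64 h RNA on all 8 arrays and in growing cells on none were 4 genes, named after their values were seen. They were chosen by this difference, so their folds are a description with no test. CDA2, a chitin deacetylase of the spore wall, stood at a Cy3 level of 8.39 ± 0.17 and was at least 3.04-fold higher than in growing cells. CSM4, of meiotic chromosome movement, stood at 8.33 ± 0.10 and was at least 2.83-fold higher. SRL4 (7.59 ± 0.21) was at least 1.74-fold and ARO10 (7.38 ± 0.24), a decarboxylase of amino acid catabolism, at least 1.46-fold higher. Conversely YPL197C and YPR044C, undetected in Cy3, were detected in Cy5 on all 8 arrays and had 64 h values lower by a factor of at least 2.10 and 2.04. Such a bound divides the brighter channel by a floor in the other. On each array the floor is the lowest signal of any spot marked well above background, or the gene's own signal where that is higher. On some arrays undetected spots exceeded that lowest signal in Cy3. Before normalization this held even for the median undetected spot on the arrays recorded at 16, 19, 23 and 24 h. The floor is thus not a strict detection limit, and "at least" holds against this floor only.

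Cy3 levels differed between the 2 slides for part of the genes. With limma, 2491 of 5586 tested genes (44.6%) differed between slide 2 (3 arrays) and slide 1 (5 arrays): 1184 were higher and 1307 lower on slide 2. Each side is a single slide, so the test takes its spread from arrays within a slide and not from slides. The differences were mostly small, with a median size of 0.13 log2 units and a 95th percentile of 0.43. Of the 178 genes that differed by more than 0.5, 173 were lower on slide 2, and so were all 17 that differed by more than 1. Dim genes leaned lower on slide 2, with a median difference of -0.30 for the 297 genes under a level of 8 and of 0.08 for the 433 from 14 up.

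MET13, a methylenetetrahydrofolate reductase, differed most. It read 12.77 to 12.90 on the 5 slide 1 arrays and 11.31 to 11.46 on the 3 of slide 2, a difference of -1.45 (limma adjusted p = 9.6e-16). IDP1, the mitochondrial NADP-dependent isocitrate dehydrogenase, read 14.10 to 14.27 and 12.89 to 12.91, and HAC1, the transcription factor of the unfolded protein response, 13.91 to 14.08 and 12.75 to 12.89. The kinase gene FPK1 and the fluoride exporter copies FEX1 and FEX2 were lower by 1.28, 1.09 and 1.08. Their slides did not overlap. In Cy5 the same 17 genes differed between slides by -0.70 to 0.35, with a median of -0.06, although Cy5 compares different times. In the other direction FET5 (0.59), CDC37 (0.59), UIP4 (0.55), DET1 (0.53) and YER186C (0.49) were higher on slide 2. Slide, scan session and, if more than 1 extract was used, the 64 h extract cannot be told apart here.

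**Figure D5:**
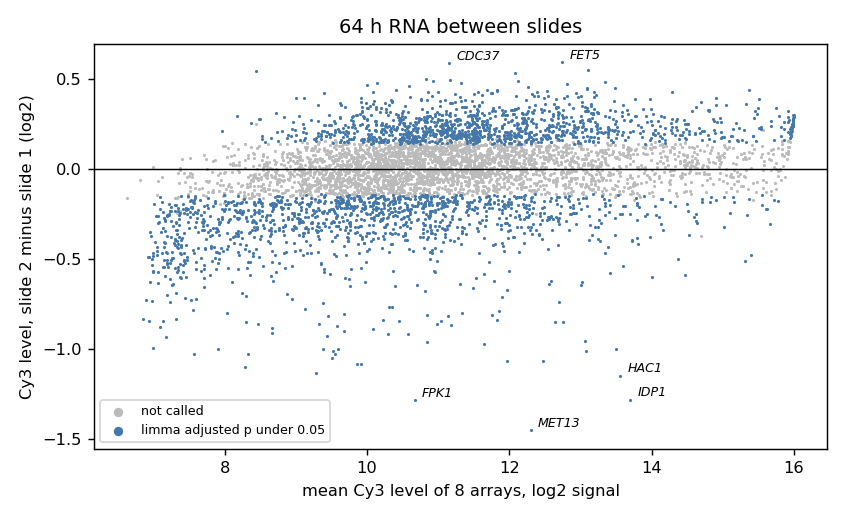
Difference in Cy3 level between slide 2 and slide 1 (log2, vertical axis) against the mean level of 8 arrays (log2 signal, horizontal axis) for 5586 tested genes, with limma-called genes in blue. The 17 genes beyond 1 log2 unit all lie below 0, MET13 lowest at -1.45, and genes at the right edge approach the saturation ceiling.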

How the data were processed

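Total RNA of growing cells (Cy5) and of 64 h cells (Cy3) was read on 8 arrays. Per the file headers, the intensity values in the deposited files come from the scanner software Agilent Feature Extraction (version 10.5.1.1), with probes annotated on sacCer2, so no coordinates are given. The deposited log10 ratio of the same files served as an alternative, and the authors' deposited log2 value table, ratios centred on 0 per gene by an unstated method (column medians -0.0124 to 0.0147), was used only to check which column each scanner file matches; its direction is Cy5 over Cy3, from that match. Members and gene lists were chosen with earlier results of these data known.

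Median signal minus median local background was put on the log2 scale, with controls and outlier spots left out, spots of a probe averaged, the brightest probe kept and each array set to 1 common median over genes detected on all arrays. Of 6225 names, 5737 matched the R64 table. Ratios used normexp (offset 50) and loess in limma 3.58.1 (R 4.3.3), with the intercept tested against 0 for genes detected on at least 4 arrays in either channel. Slides were compared with limma. Adjusted p-values are Benjamini-Hochberg over all genes tested, with a threshold of 0.05. The number of arrays limits the precision. Bounds come from channel means after loess and Aquantile normalization and are open to dye bias. On simulated data the slide comparison over 5586 genes recovered 57 of 100 differences of 0.25 and 96 of 100 of 0.5, and the ratio over 5698 genes 55 and 86 of 100.

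Named genes are all those saturated on all arrays, the 20 brightest saturated on none, undetected genes detected in Cy5 on all arrays, the 2 brightest, 2 dimmest and undetected members of each list (up to 6), the 5 most variable, the 5 smallest p in each direction between slides, 36 fixed genes and the markers. Exceptions to a list's direction were named after their values were seen. Alternatives changed the background correction, scaling, detection and saturation rules, filter, slide and arrays used.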

Additional observations from a re-analysis of the deposited data

Results flagged for a closer look

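For 181 values (array measures and named genes), the highest or lowest array was compared with its neighbour, and 10 stood apart from the other 7 arrays by more of the whole range than Dixon's critical value for 8 arrays. Chance alone flags about 1 in 20. Arrays are named by the time recorded for their file, which is in doubt for 20 h and 24 h. The array recorded at 23 h had the highest share of spots well above background in Cy3, 91.12%, with the next at 90.23%. On that array only, 53 genes were detected, with the next array at 22. Its lowest spot marked well above background read 90.5, under the median of 92 for its negative control spots. What this contributes to the count was not tested. Of the gene levels, the array at 17 h was lowest for PDC6 (9.77, next 9.95) and highest for HSP33 (11.52, next 11.34). The array at 20 h was highest for ATG29 (7.64, next 7.42), UPC2 (8.50, next 8.31) and STE6 (10.30, next 9.99) and lowest for UBI4 (15.37, next 15.53). The array at 21 h was lowest for YGP1 (15.01, next 15.18). The array at 16 h was highest for ADH1 (16.00, next 15.63).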

How the results depend on the processing

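The order of levels held: the brightest 100 genes shared 88 to 100 members with the same set under other background corrections and scalings (88 with the scanner's processed signal) and 96 to 100 without 1 array, and 23 of the 31 lists lay above the median of all genes under each of these. The count of undetected genes depended on the detection rule. It was 435, but 84 when a gene counted as detected with any signal significantly above background by the software's other flag, 550 with at most 1 array allowed and 635 with at most 0.5 of the spots, and 449 and 571 on slide 1 and slide 2 alone. Leaving out each array gave 436 to 488, the highest without the array recorded at 23 h. Genes saturated on all arrays were 34, 51 with any saturated spot, 54 on slide 1 alone and 34 to 41 without 1 array. The causes were not tested, except that fewer arrays can only raise such counts. Of the levels of named genes under other settings, 211 moved by more than 1 SD over arrays and 2519 by less.

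Genes higher in 64 h cells numbered 1841 to 2382 and lower ones 1622 to 2446 over the alternatives run, with 2082 and 2446 by the scanner's ratio and 1841 and 1622 on slide 2 alone. Leaving out 1 array gave 2197 to 2322 and 2096 to 2192, and leaving out both arrays recorded at 20 h and 24 h gave 2245 and 2123. With median centring in place of loess, CAM1 turned to -0.30 and RPL15B to -0.0158; both are bright genes, and the cause was not tested. Genes higher on slide 2 numbered 1022 to 1130 and lower 1160 to 1305 without 1 array, 1246 and 978 with normexp, 1148 and 1025 with quantile normalization, and 1240 and 1066 with the scanner's background-subtracted signal, which was chosen after seeing the data. With genes detected in both channels, a rule added after seeing the data, 2228 were higher and 2112 lower. Among 510 values of single named genes' ratios under other settings, 500 kept direction and call, 8 lost the call and 2 turned; all 121 of the slide differences kept both. The promoter motif comparison was not run. Signal over background limits the dim genes, and saturation the bright ones.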
